A study of Mus musculus with 5 samples.

Results

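The genes described here store, import, export and recycle iron in mouse peritoneal macrophages, the phagocytes of the abdominal cavity. They are 10 genes chosen by symbol and not by a cut on measured values, though with earlier results of these data known. They are the ferritin genes Fth1 and Ftl1, the transporters Slc40a1, Slc11a1 and Slc11a2, the heme-degrading enzyme gene Hmox1, the transferrin receptor gene Tfrc, the transferrin gene Trf, and the iron regulatory protein genes Aco1 and Ireb2. All 10 were found among the 38463 gene symbols of the deposited table, and all 10 passed the filter on low values that 12214 genes passed. RNA was sequenced from 3 wild-type libraries, of a strain the labels give as C7/BL6, and from 2 libraries with the genotype Nrp1-/- and the strain LysMCre-Nrp1fl/fl, called knockout below. Nrp1 encodes neuropilin 1, a surface protein that binds semaphorins and growth factors of the VEGF family. In the knockout mice Cre recombinase is expressed from the lysozyme M promoter, which is active in macrophages, monocytes and neutrophils, and removes the floxed part of Nrp1. The labels name neither Cre nor floxed alleles for the wild-type mice, so an effect of Cre and an effect of Nrp1 loss cannot be told apart. All cells were grown in F12 DMEM with 10% FBS.

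Macrophages take up the iron of aged red cells and of transferrin, keep it in ferritin and hand it back to plasma. Hmox1 opens the heme ring and frees its iron, NRAMP1 (Slc11a1) and DMT1 (Slc11a2) move iron out of the phagosome and endosome, ferritin holds it in a shell of heavy (Fth1) and light (Ftl1) chains, and ferroportin (Slc40a1) is the known exporter of iron from the cell. When iron is scarce, the iron regulatory proteins 1 (Aco1) and 2 (Ireb2) bind a hairpin in target mRNAs, the iron-responsive element. Binding in a 5′ UTR blocks translation, and binding in a 3′ UTR protects the mRNA from decay. RNA sequencing reads the level of an mRNA, set by its synthesis and its decay together, and not its translation.

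The hairpins in the transcript models of these genes are shown because binding in a 5′ UTR and binding in a 3′ UTR have different known effects. Binding, translation and decay were not measured here. The search took a C, an arm of 5 bases, a loop of CAGTG and 1 further base other than G, and a second arm of 5 bases that pairs with the first, with G-T pairs allowed. It read the sense strand of the complete coding transcripts of GENCODE M21 on GRCm38, the build named mm10 in the labels. Of the 10 genes, 3 had the hairpin in the 5′ UTR and 1 in the 3′ UTR, where 0.0782% and 0.418% of 21745 coding genes had one in those parts. The 10 genes were searched in all their complete coding transcripts, and the 21745 only in the longest of each gene, so the sets are unlike. Fth1 had 1 site at chr19:9982732-9982760 (plus strand), Ftl1 had 1 at chr7:45459779-45459807 (minus) and Slc40a1 had 1 at chr1:45925465-45925493 (minus), each in the 5′ UTR. Tfrc had 4 in its 3′ UTR, at chr16:32631219-32631247, chr16:32631598-32631626, chr16:32631663-32631691 and chr16:32631710-32631738 (plus). No match was found in the other 6 genes by this search, which says only that these letters are absent from those models. Each site is given 5′ to 3′ as the DNA letters of the mRNA strand, with the loop in capitals.
Fth1: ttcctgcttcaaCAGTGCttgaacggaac
Ftl1: gtcttgcttcaaCAGTGTttgaacggaac
Slc40a1: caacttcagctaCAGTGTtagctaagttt
Tfrc site 1: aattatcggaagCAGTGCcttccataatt
Tfrc site 2: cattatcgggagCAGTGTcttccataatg
Tfrc site 3: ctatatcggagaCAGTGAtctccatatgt
Tfrc site 4: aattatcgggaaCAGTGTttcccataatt
The genes themselves lie, by strand in brackets, with Fth1 at chr19:9980598-9985098 (plus), Ftl1 at chr7:45457944-45459884 (minus), Slc40a1 at chr1:45908068-45926523 (minus), Slc11a1 at chr1:74375195-74386062 (plus), Slc11a2 at chr15:100387898-100425072 (minus). The others are Hmox1 at chr8:75093621-75100589 (plus), Tfrc at chr16:32608920-32632794 (plus), Trf at chr9:103204001-103230444 (minus), Ireb2 at chr9:54863789-54912530 (plus) and Aco1 at chr4:40143081-40198338 (plus). The ferritin sites share their arms, with the same 5 bases on each side of the loop, while the Slc40a1 arms differ from them.

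Values are FPKM, fragments counted per length of transcript and per total of mapped reads, so levels can be set side by side between genes. Such levels can still move with read assignment and with a lean by length, both described below. Sequencing depth is unknown, since FPKM are not counts. Summed over all symbols, FPKM ran from 539101 to 629135 per library. The macrophage markers fixed for this work (7 in the table, among them Csf1r, Cd68 and the F4/80 gene Emr1) were all at 1 FPKM or more in every library. Nrp1 had 24.3, 19.0 and 11.5 FPKM in wild-type replicates 1, 2 and 3, above the 7.63 and 7.70 of the knockout replicates, and its log2 fold change, -1.09 ± 0.32 (SE), missed the threshold (limma adjusted p = 0.93). Without wild-type replicate 3 that fold change was -1.37, and it missed the threshold too (limma adjusted p = 0.16). Wild-type replicate 3 stood apart. In the file its values are shifted against the gene names in 2144 rows and were put back in order, and 54.2% of tested genes were lower in it than in every other library, against 9.62% to 12.7% for each of the others. Of the 10 genes only the row of Fth1 was shifted. The results that this library moves are given without it as well.

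Ferritin mRNA stood at the top of the transcriptome. Fth1, the heavy chain that oxidises iron on entry, had 21609 FPKM in wild-type replicate 1 and 19243 in replicate 2, and 20398 and 25557 in the knockout replicates. That made it the most abundant symbol in 3 of these 4 libraries and of rank 3 in wild-type replicate 2, with the groups overlapping. In wild-type replicate 3 it was listed at 0 once the rows were put in order, and its row as deposited held 7.995, the value that belongs to the pseudogene Fth-ps2. A listed 0 can be a failed estimate: of 1305 symbols above 50 FPKM in each of the other 4 libraries, Fth1 was the 1 symbol listed at 0 there. With that 0 taken as a measurement the log2 fold change was 4.94 ± 4.08 (SE), and with it treated as missing, a choice made after seeing the data, it was 0.16 ± 0.52, with a 95% interval from -1.10 to 1.43.

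Ftl1, the light chain that helps the iron core form, had 17635, 16189 and 28961 FPKM in wild-type replicates 1, 2 and 3, against 13609 and 16804 in the knockout replicates. Its highest value was in wild-type replicate 3, and the lower of the knockout values lay below all of the wild-type ones while the other lay between them. The log2 fold change was -0.42 ± 0.50 (SE), and -0.16 without wild-type replicate 3. Together Fth1 and Ftl1 made up 6.99% and 6.38% of the summed FPKM of wild-type replicates 1 and 2, and 6.31% and 7.58% of that of the knockout replicates. Ftl1 shares 78.9% of the 50-base stretches of its longest coding model (968 bases) with 15 other genes of the annotation, most of all Ftl1-ps1, so reads can be split among them. Fth1 shares 4.01%, all of it with Gm6977, which had 1747 to 2995 FPKM, highest in wild-type replicate 3. The paralog Ftl2 was listed at 532 to 951 FPKM, lowest in that library, and the mitochondrial ferritin gene Ftmt at 0 in all libraries but knockout replicate 1, which had 0.0206.

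Hmox1, encoding heme oxygenase 1, had the next highest level of the 10 genes. It had 2582, 1888 and 2375 FPKM across the wild-type libraries, against 1658 and 2603 in the knockouts, so that the lowest and the highest value of the 5 were the 2 knockout libraries. On the log2 scale the difference was -0.12 ± 0.34 (SE; 95% interval from -0.94 to 0.69), and it turned to 0.20 when knockout replicate 1 was left out.

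The transporters covered a wide range. Slc11a1, the phagosomal metal transporter of macrophages, had 718, 809 and 1179 FPKM across the wild-type libraries, against 933 and 846 in the knockouts. The knockout values fell inside the wild-type range, and the log2 fold change was 0.01 ± 0.30 (SE), and 0.22 without wild-type replicate 3. Slc11a2, its widely expressed relative, had 15.5, 25.02 and 15.9 FPKM against 22.5 and 21.2, again inside the wild-type range, with a log2 fold change of 0.24 ± 0.26 (SE), and 0.14 without wild-type replicate 3. Slc40a1, the iron exporter, was the lowest of the 10 in the mean of each group. It had 4.75, 2.99 and 1.62 FPKM across the wild-type libraries, against 1.41 and 4.99 in the knockouts. The knockout replicates were thus the lowest and the highest of the 5 and differed 3.54-fold, more than the 1.59-fold between wild-type replicates 1 and 2. On the log2 scale the difference was -0.04 ± 0.48 (SE; 95% interval from -1.18 to 1.09), and it was -0.70 without knockout replicate 2 and 0.61 without knockout replicate 1.

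On the uptake side, Tfrc had 7.43, 11.1 and 2.15 FPKM across the wild-type libraries, against 9.14 and 8.05 in the knockouts. Wild-type replicate 3 was the lowest, and the knockout values lay between wild-type replicates 1 and 2. The log2 fold change was 0.48 ± 0.54 (SE), and -0.07 without wild-type replicate 3, with an interval from -0.60 to 0.45. Trf, whose product carries iron in plasma, had 192, 303 and 542 FPKM across the wild-type libraries, against 285 and 338 in the knockouts, with wild-type replicate 3 the highest. Its log2 fold change was -0.03 ± 0.43 (SE), and 0.36 without that library. The 6 liver markers in the table (Alb, Apoa1, Ttr, Fga, Fgb, Ahsg), genes of the main known source of transferrin, summed to at most 0.0716 FPKM in any library, with 4 of them at 0 in all 5. The Trf model shares 79.8% of its 50-base stretches with Gm20425, listed at 9.18 to 12.6 FPKM.

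The iron sensors were among the less abundant of the 10. Aco1, a cytosolic aconitase that binds the hairpin when it lacks its iron-sulfur cluster, had 18.2, 16.3 and 12.2 FPKM across the wild-type libraries, against 18.6 and 15.8 in the knockouts. The groups overlapped, with a log2 fold change of 0.15 ± 0.24 (SE) that was -0.01 without wild-type replicate 3. Ireb2, which is degraded when iron is plentiful, had 5.62, 5.82 and 1.35 FPKM across the wild-type libraries, against 6.47 and 6.63 in the knockouts. It was the 1 gene of the 10 whose groups did not overlap, in either direction, where 20.8% of all tested genes did not. Its log2 fold change was 0.67 ± 0.48 (SE; 95% interval from -0.46 to 1.81), and 0.17 without wild-type replicate 3.

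**Figure D1:**
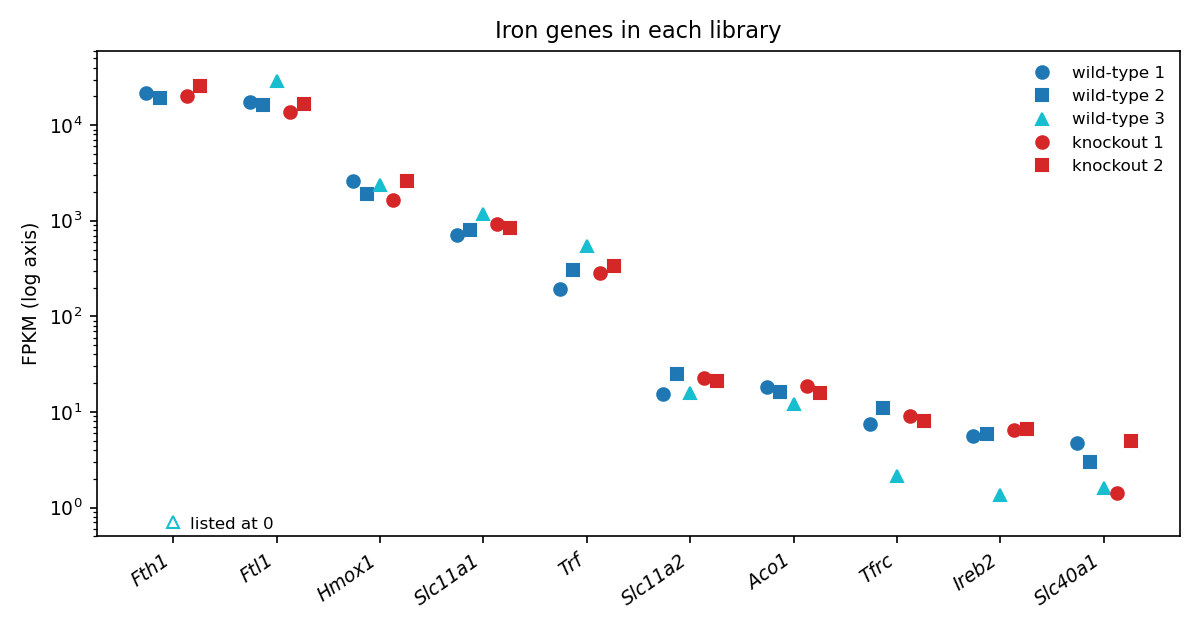
FPKM of the 10 iron genes in each library on a log axis, ordered by their mean over the libraries other than wild-type replicate 3 (triangles). Each point is 1 library; Fth1 of wild-type replicate 3, listed at 0, is drawn as an open triangle at the foot of the axis. Fth1 and Ftl1 lie at 13609 FPKM or above elsewhere, and Slc40a1 between 1.41 and 4.99.

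No iron gene passed the test of knockout against wild-type. Of the 10 genes, 0 passed in either direction (limma adjusted p between 0.927 and 0.997), where 0.0573% of all tested genes passed, and 0 had an unadjusted p under 0.05. The fold change was positive for 6 and negative for 4, with a median of 0.08 on the log2 scale, next to 0.11 over all tested genes. Without wild-type replicate 3 it was positive for 5 and negative for 5, with a median of 0.07 next to 0.02, and the largest size among the 10 was the 0.36 of Trf. The intervals are wide, so these p-values do not show that the genes are alike in both groups. An exact permutation test of 1 gene cannot go below a two-sided p of 0.2 with 3 against 2 libraries. Among markers of other cells, the 10 of mesothelium and fibroblasts, 4 of them at 1 FPKM or more in every library and 0 listed at 0 in all, summed to 32.5, 33.2 and 14.4 FPKM in wild-type replicates 1, 2 and 3 and to 18.7 and 13.1 in the knockouts. The 4 were the matrix genes Col1a1, Col1a2, Col3a1 and Dcn. The mesothelial markers Msln, Upk3b, Lrrn4, Krt19 and Wt1 were under 1 FPKM in every library, and Krt8 was at 0.180 to 1.04. The part of such cells in the iron values was not tested. In bulk RNA, fewer cells of a type and less RNA per cell cannot be told apart.

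**Figure D2:**
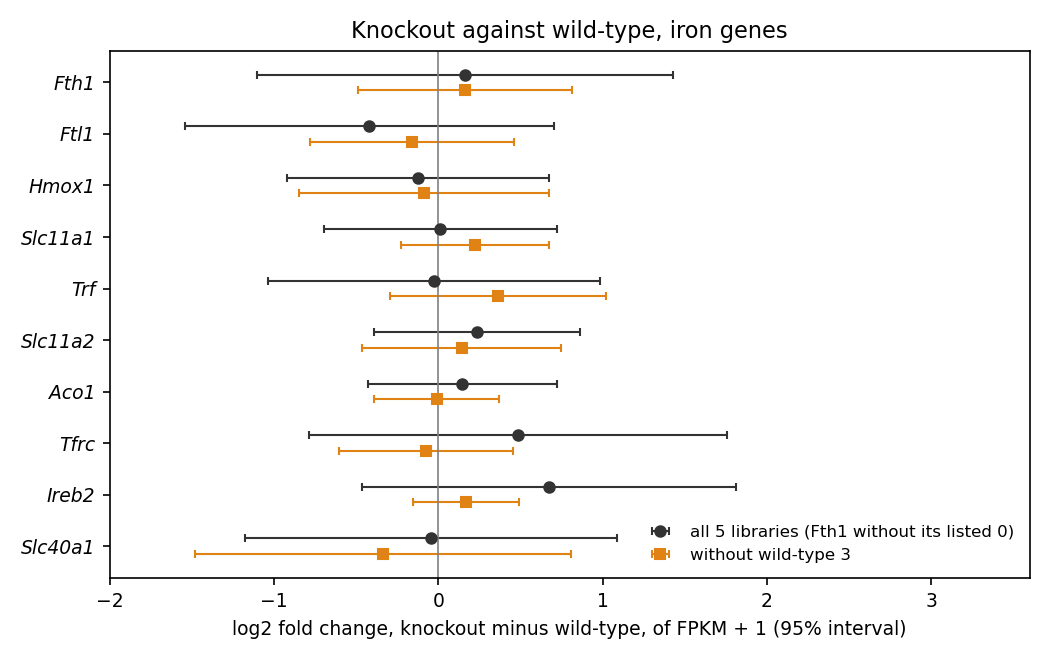
Log2 fold change of each iron gene, knockout minus wild-type, on log2(FPKM + 1), with 95% intervals from limma, for all 5 libraries (circles; the listed 0 of Fth1 treated as missing) and without wild-type replicate 3 (squares). Every interval includes 0. The values of Tfrc and Ireb2, 0.48 and 0.67 with all libraries, are -0.07 and 0.17 without that library.

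The mean levels fell in the same order in the knockouts and over wild-type replicates 1 and 2: Fth1, Ftl1, Hmox1, Slc11a1, Trf, Slc11a2, Aco1, Tfrc, Ireb2 and Slc40a1. In wild-type replicate 1 itself Aco1 (18.2 FPKM) stood above Slc11a2 (15.5), and over replicates 1 and 2 their ranges overlapped. In the knockout libraries the mean levels ran from 22978 ± 3648 FPKM (SD, n = 2) for Fth1 to 3.20 ± 2.53 for Slc40a1. The step from Trf to Slc11a2 was the widest, 14.3-fold in the knockout and 18.4-fold in the wild-type means. Across all 3 wild-type libraries the ranges of Slc11a2 and Aco1, of Tfrc and Ireb2, and of Ireb2 and Slc40a1 overlapped, so those neighbours are not separated by more than their spread, and Fth1 has no order there because of its listed 0.

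Leaving out Fth1, wild-type replicate 3 held the highest value of the 5 libraries for 3 of 9 iron genes (Ftl1, Slc11a1 and Trf) and the lowest for 3 (Tfrc, Ireb2 and Aco1). Over all tested genes it was the highest for 21.4% and the lowest for 54.2%, so extreme values there are not particular to the iron genes. The size of its departure from the mean log2 level of the other libraries had a median of 0.70 over the 9 iron genes. Over all tested genes that median was 0.48. Tfrc was 4.15-fold and Ireb2 4.55-fold below the mean of the other libraries, while Ftl1 was at 1.80 and Trf at 1.94 times that mean. These departures ran with transcript length. The 4 genes with models of 968 to 2571 bases (Ftl1, Hmox1, Slc11a1 and Trf) were above the mean log2 level of the others, by 0.15 to 0.99, and the 5 with models of 3370 to 5770 bases (Slc40a1, Aco1, Slc11a2, Tfrc and Ireb2) were below it, by -0.36 to -1.64.

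The transcriptome leaned the same way in that library, but the iron genes did not all depart as genes of their length did. Over the 10041 tested genes with a coding model (82.2% of those tested), the median departure was 0.28 for models up to 1000 bases, -0.17 between 2000 and 3000 and -0.69 above 5000. Slc11a1 and Trf, with models of 2315 and 2571 bases, departed by 0.52 and 0.99, above the upper quartile of 0.20 between 2000 and 3000. Ftl1 (0.86) lay above the upper quartile of its range of length (0.66). Tfrc (-1.64), Ireb2 (-1.60) and Slc40a1 (-0.705) lay below the lower quartiles of theirs (-0.84, -1.01 and -0.704). Hmox1, Aco1 and Slc11a2 lay between the quartiles of theirs. Pearson's r of the departure with log10 length across the 10041 genes was -0.43 in wild-type replicate 3. Other libraries leaned with length too: set against the mean of the remaining 4 libraries in the same way, r was 0.50 in knockout replicate 1, 0.31 in wild-type replicate 2, 0.23 in knockout replicate 2 and -0.03 in wild-type replicate 1. Those means include wild-type replicate 3. Among the other 4 libraries alone, r was 0.32 in knockout replicate 1 and -0.30 in wild-type replicate 1, and 0.06 and -0.02 in wild-type replicate 2 and knockout replicate 2. Genes of a library share its depth, so these are descriptions, and a lean with length is not particular to wild-type replicate 3. The 5 shortest of the 10 genes are also the 5 most abundant, so length and level cannot be told apart among them. The 7 mast cell markers, of which 3 reached 1 FPKM in every library and 0 were listed at 0 in all, summed to 176 FPKM in wild-type replicate 3 and to 16.4 to 34.3 elsewhere. The part of length and of mast cells in the iron values was not tested.

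**Figure D3:**
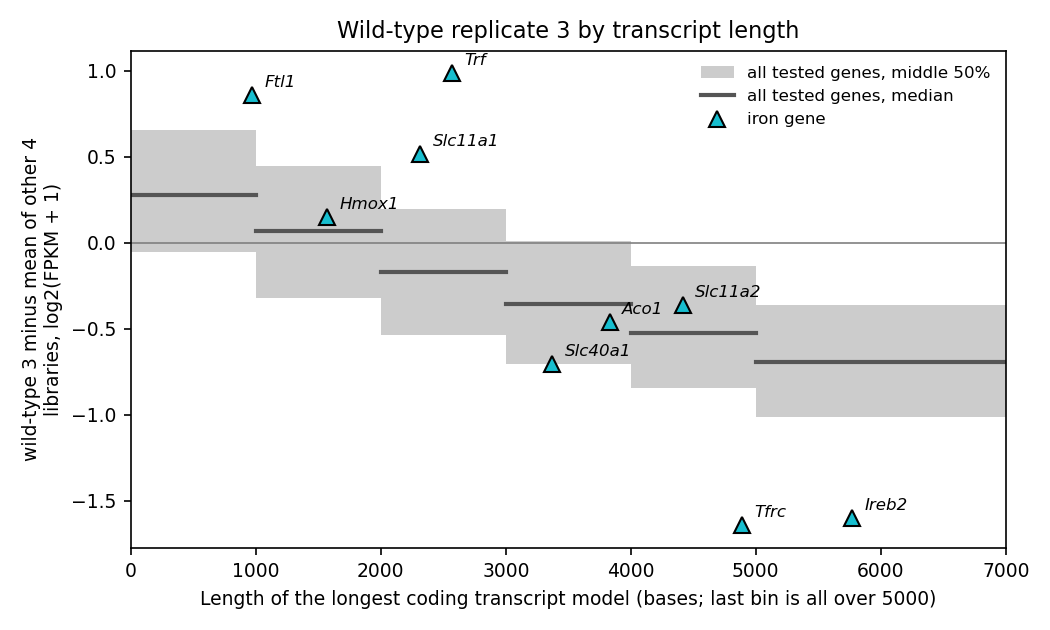
Departure of wild-type replicate 3 from the mean of the other 4 libraries, in log2(FPKM + 1), against the length of the longest coding transcript model in bases. Grey bands and bars give the middle 50% and the median of all tested genes in bins of length, and triangles the iron genes without Fth1. Ftl1, Hmox1, Slc11a1 and Trf lie above 0, and Slc40a1, Aco1, Slc11a2, Tfrc and Ireb2 below it.

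Ratios within a library do not depend on how libraries are scaled to each other. Fth1 mRNA exceeded Ftl1 mRNA in FPKM in all 4 libraries where Fth1 had a value. The Fth1 to Ftl1 ratio was 1.23 and 1.19 in wild-type replicates 1 and 2, and 1.499 and 1.521 in the knockout replicates. The 2 groups did not overlap, and the log2 difference was 0.32. With 2 against 2 libraries the exact two-sided permutation p was 0.33, the smallest that design allows, and 0.53 adjusted over the 4 ratios tested. A ratio can still move with read assignment and with a lean by length. Ftl1 shares 78.9% of its 50-base stretches with other genes, and the Fth1 and Ftl1 models have 1494 and 968 bases. Among these 4 libraries Pearson's r with log10 length was -0.30 and 0.06 in wild-type replicates 1 and 2, and 0.32 and -0.02 in the knockout replicates. The part of either in this ratio was not tested. The ratio of the exporter Slc40a1 to the importer Tfrc was 0.639, 0.270 and 0.750 across the wild-type libraries, against 0.154 and 0.619 in the knockouts. These ranges overlapped (log2 difference -0.71, exact permutation p = 0.40, 0.53 adjusted), and the difference turned to 0.29 without knockout replicate 1.

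Slc11a1 exceeded Slc11a2 by 32.3 to 74.0 times across the wild-type libraries, against by 41.4 and 40.0 times in the knockouts (log2 difference -0.24, exact permutation p = 0.80, 0.80 adjusted). Without wild-type replicate 3, which had the ratio of 74.0, that difference was 0.07. Aco1 exceeded Ireb2 by 3.25, 2.81 and 9.05 times across the wild-type libraries, against by 2.87 and 2.39 times in the knockouts (log2 difference -0.73, exact permutation p = 0.40, 0.53 adjusted). The 9.05 was again wild-type replicate 3, and without it the difference was -0.21.

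**Figure D4:**
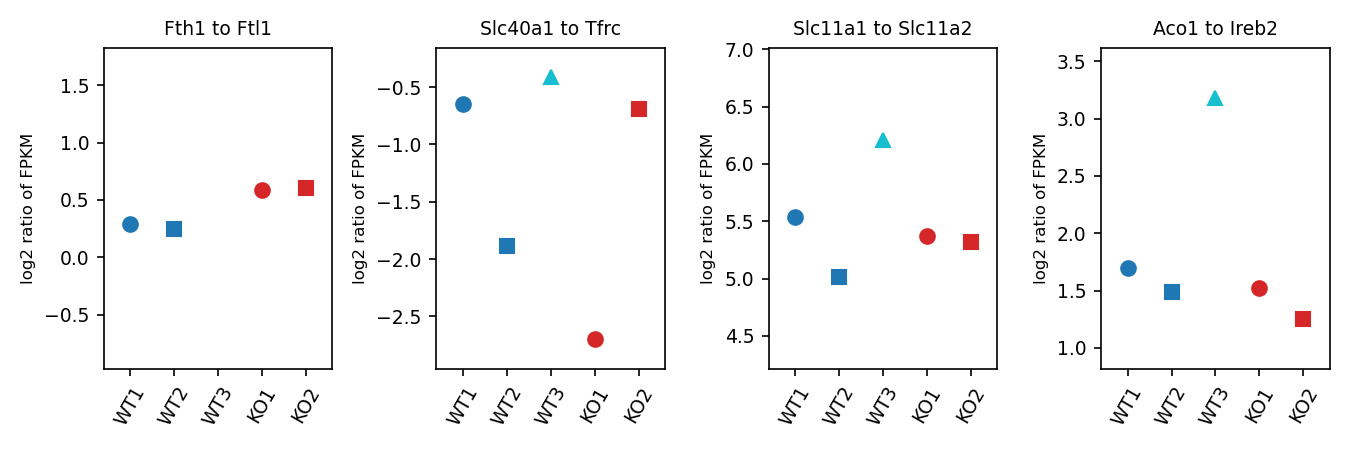
Log2 ratio of FPKM within each library for 4 pairs of iron genes, with 1 point per library (wild-type WT1 to WT3, knockout KO1 and KO2) and axes of equal span. Fth1 to Ftl1 has no value in WT3. Its knockout points, at ratios of 1.499 and 1.521, lie above the wild-type ones at 1.23 and 1.19, and the groups overlap in the ratio of Slc40a1 to Tfrc.

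The wider iron pathway was read from 6 further lists, of which 92 genes were in the table and 73 passed the filter. With all 5 libraries none of the 73 passed the test (limma adjusted p of at least 0.93), and 1 had an unadjusted p under 0.05. The groups did not overlap for 13 of them, 10 higher and 3 lower in the knockout, or 17.8%, next to the 20.8% of all tested genes.

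In heme synthesis 4 of 8 tested genes had a positive and 4 a negative fold change (median 0.01), and without wild-type replicate 3 the split was 3 to 5 (median -0.05). Alas1, the first and rate-limiting enzyme outside red cell precursors, stood at 384 ± 51.2 FPKM over the wild-type libraries (SD, n = 3), against 445 ± 16.2 over the knockouts (SD, n = 2), which did not overlap. Urod, which trims the side chains of the ring, had 45.8 ± 20.4 against 32.0 ± 2.49, with 69.4 in wild-type replicate 3. Alas2, the red cell isoform, was listed at 0 or next to it throughout, and the 8 erythroid markers summed to at most 0.382 FPKM. The log2 fold change of Urod went from -0.42 to -0.09 without wild-type replicate 3, and that of Alas1 from 0.22 to 0.11.

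For heme transport and breakdown 3 of 8 tested genes were positive and 5 negative (median -0.10), or 2 and 6 without wild-type replicate 3 (median -0.04). The biliverdin reductases, which act on the product of heme oxygenase, stood lower in the knockout means: Blvra had 76.0, 70.6 and 86.8 FPKM across the wild-type libraries, against 61.2 and 56.2 in the knockouts, and Blvrb had 1208 ± 270 against 935 ± 27.3. The Blvra groups did not overlap, with a log2 fold change of -0.40 ± 0.20 (SE), and the knockout range of Blvrb reached into that of wild-type. Lrp1, a receptor for the heme carrier hemopexin, had 175 ± 38.8 against 237 ± 74.2, and Hp, which encodes haptoglobin, had 626 ± 57.2 against 678 ± 75.1. The fold changes of Blvrb (-0.34) and Lrp1 (0.43) were -0.18 and 0.23 without wild-type replicate 3. The hemoglobin receptor gene Cd163 was at 0.0807 to 0.341 FPKM and was not tested.

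Genes of iron uptake, release and chaperoning were positive for 7 of 12 and negative for 5 (median 0.09), or for 9 and 3 without wild-type replicate 3 (median 0.11). Ncoa4, the receptor that delivers ferritin to the lysosome, had 19.0, 13.4 and 17.8 FPKM across the wild-type libraries, against 22.2 and 22.6 in the knockouts, which gave 0.41 ± 0.23 (SE) as log2 fold change. Its groups did not overlap, and its row in wild-type replicate 3 was among the shifted ones. Mcoln1, a lysosomal channel that releases iron, had 51.1 ± 9.68 against 66.6 ± 4.34, and Slc22a17, a receptor for the siderophore carrier lipocalin 2, had 6.58 ± 0.521 against 8.60 ± 0.904. The cytosolic iron chaperone genes Pcbp1 and Pcbp2 had 214 ± 24.6 and 85.5 ± 11.3 FPKM against 194 ± 14.8 and 83.7 ± 6.45. The fold change of Mcoln1 was 0.39, and 0.23 without wild-type replicate 3. The other 11 genes of the list in the table, among them the ferroxidase gene Heph and the ferrireductase gene Cybrd1, did not pass the filter.

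In iron sensing and the hepcidin axis 6 of 7 tested genes were positive (median 0.30), and without wild-type replicate 3, 3 of 7 (median -0.05). Fbxl5, part of the ubiquitin ligase that removes Ireb2 protein when iron is plentiful, had 18.4, 18.05 and 10.6 FPKM across the wild-type libraries, against 19.6 and 22.3 in the knockouts. Its groups did not overlap, with a log2 fold change of 0.44 ± 0.29 (SE) that was 0.19 without that library. Smad4 and Smad5, transducers of the signal that drives hepcidin, had 42.4 ± 15.4 and 3.64 ± 1.29 FPKM against 50.04 ± 2.495 and 5.06 ± 0.278. Furin, a protease that cuts several iron regulators, had 36.5 ± 18.1 against 45.8 ± 8.54, and Id1, a target gene of bone morphogenetic proteins, had 1.16 ± 0.538 against 0.508 ± 0.243. The fold change of Id1, the 1 negative gene of the list with all libraries, went the other way. It moved from -0.49 to -0.72 without wild-type replicate 3 (limma adjusted p = 0.997), and was -0.998 with a pseudocount of 0.1. Its smallest limma adjusted p over the alternatives was 0.32, with library weights. Id1 passed the filter only through wild-type replicates 1 and 2 (1.55 and 1.38 FPKM), where it was highest, so its lower knockout level is no independent result. It was not tested without either of these libraries or with a filter at 5 FPKM. The fold change of Smad5 went from 0.42 to 0.20 and that of Furin from 0.46 to -0.05 without wild-type replicate 3. Hepcidin itself, Hamp, was at 0 to 0.3001 FPKM and was not tested.

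Iron-sulfur cluster assembly had 10 positive and 13 negative of 23 tested genes (median -0.07), and the same split without wild-type replicate 3 (median -0.0044). The scaffold gene Iscu had 74.5 ± 15.7 FPKM over the wild-type libraries against 78.2 ± 13.5 over the knockouts, and Fam96b, of the cytosolic targeting complex, 46.8 ± 7.65 against 40.5 ± 2.38. Mms19, of that same complex, had 14.99, 18.6 and 15.5 FPKM across the wild-type libraries, against 22.6 and 21.2 in the knockouts, without overlap, and a log2 fold change of 0.41 ± 0.21 (SE). Bola3, which acts late in the mitochondrial pathway, had 24.6 ± 6.84 against 18.8 ± 3.91, and its fold change of -0.35 was -0.15 without wild-type replicate 3.

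The NRF2 and BACH1 axis, the activator and the repressor that bear on Hmox1 and ferritin transcription, had 11 positive and 4 negative of 15 tested genes (median 0.24), or 9 and 6 without wild-type replicate 3 (median 0.01). Slc7a11, the cystine importer, had 30.2, 33.3 and 15.6 FPKM across the wild-type libraries, against 41.0 and 52.8 in the knockouts, without overlap. With all 5 libraries it is the 1 list gene with an unadjusted p under 0.05, and its log2 fold change was 0.87 ± 0.35 (SE), or 0.54 without wild-type replicate 3. In the fit without that library the unadjusted limma p was 0.026 for Slc7a11, 0.010 for Id1 and 0.034 for Slc22a17, each with an adjusted p of 0.997. Bach1, the heme-sensing repressor, had 15.3, 19.2 and 8.05 against 19.5 and 19.4, also without overlap, with a log2 fold change of 0.51 ± 0.35 that was 0.17 without that library. Gsr, glutathione reductase, had 196, 145 and 25.04 against 193 and 221, and its fold change of 1.20 became 0.30. Prdx1, an abundant peroxidase, had 2823 ± 1588 against 3066 ± 382, and the autophagy receptor gene Sqstm1 had 773 ± 168 against 782 ± 41.6. The fold change of Prdx1 turned from 0.30 to -0.21 without wild-type replicate 3.

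**Figure D5:**
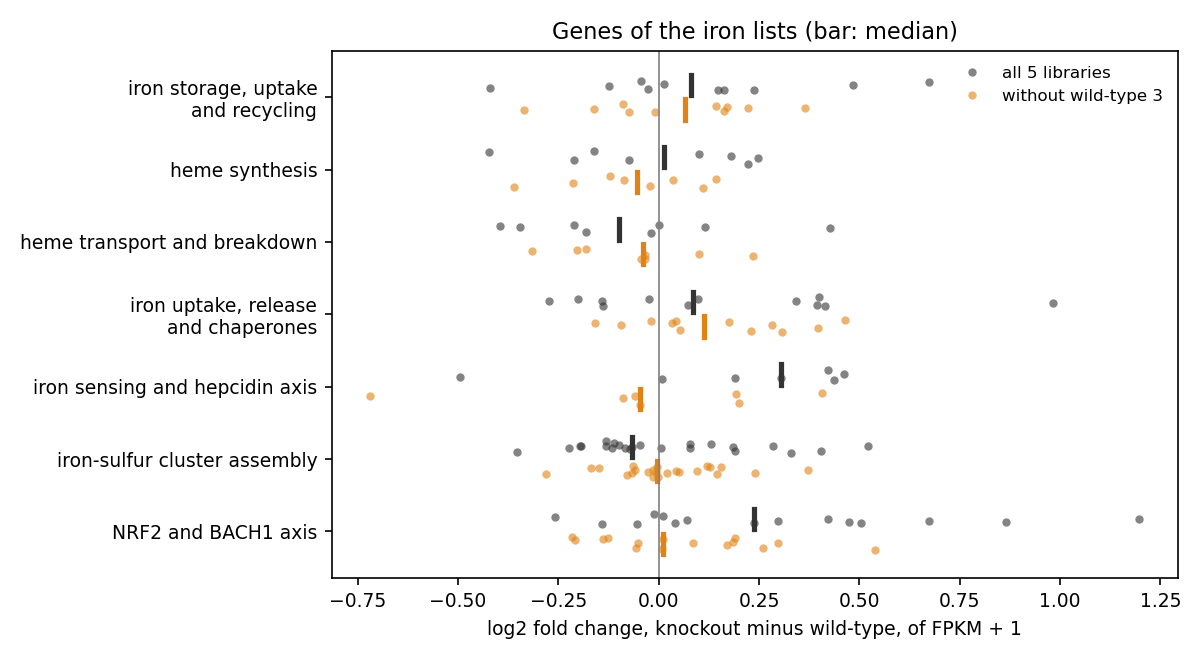
Log2 fold change, knockout minus wild-type, of log2(FPKM + 1) for the tested genes of the 10 iron genes and of 6 further lists, for all 5 libraries (dark; the listed 0 of Fth1 treated as missing) and without wild-type replicate 3 (orange), with bars at the medians. The medians of iron sensing (0.30) and of the NRF2 and BACH1 axis (0.24) are -0.05 and 0.01 without that library.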

How the data were processed

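Per the labels' protocols, mRNA was purified from 1 µg of total RNA and sequenced on an Ion Torrent system, and reads were aligned to mm10 with TopHat2 and Bowtie2. FPKM were computed by the authors with Cufflinks, per the labels' protocols, under Torrent Suite 4.4 with its whole transcriptome plugin 4.2-r7. The annotation and the versions of TopHat2, Bowtie2 and Cufflinks are not given in the sources used here. Another 17 deposited columns of per-sample or averaged values were not used.

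The table's names are sorted with hyphens ignored, while wild-type replicate 3 follows a sort that counts them. Put back in that order, its Pearson r with the mean of the other libraries over 722 expressed shifted rows rose from 0.171 to 0.916. Rows named by a number (27) or differing only in case (50) were left out, and rows of 1 symbol were summed. Genes with at least 1 FPKM in at least 2 libraries were tested with limma 3.58.1 (R 4.3.3) on log2(FPKM + 1). The model held genotype alone and let the variance follow the mean level, and p-values were adjusted by Benjamini and Hochberg over all tested genes, with 0.05 as threshold. Fold changes are on that scale, which understates low genes. No label ties the libraries to separate animals, and the p-values then speak of the spread between these samples, which may be technical. Named genes are the 10 members, Nrp1, and from each further list the 3 with the smallest p and the 2 with the highest mean. Some genes that this rule names are not reported here. Members, lists and tests were chosen with earlier results of these data known. Of the 101 symbols listed, 92 were in the table, with older and newer names of a gene counted apart, and Flvcr1, Flvcr2 and Abcb10 were not analysed here. The marker lists other than those named in the results (neutrophil, B cell, T cell, proliferation) summed to 23.2 to 73.7, 10.8 to 19.5, 0.824 to 2.19 and 10.6 to 15.7 FPKM. Most of the neutrophil sum was S100a8 (22.6 to 72.4 FPKM), and most of the B cell sum was Ighm (9.21 to 16.2). Under 1 FPKM in every library were 7 of 8 neutrophil, 4 of 7 B cell, 5 of 6 T cell and 5 of 9 proliferation markers.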

Additional observations from a re-analysis of the deposited data

How the results depend on the processing

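No iron gene passed in any of the 16 alternatives to the fit reported, with a smallest adjusted limma p of 0.59, and no gene of the further lists did (smallest 0.32). Not every gene was tested in each alternative. Among the iron genes, Slc40a1 was not tested with the filter at 5 FPKM, nor Fth1 with the shifted genes taken out. The count over all genes, 7, was 2 with a filter at 5 FPKM, 1 with no filter, 3 in the order as deposited, 21 with library weights, 4 with the replicate block and 0 to 14 without 1 library (0 without knockout replicate 1 or 2, 14 without wild-type replicate 2). Scaling moved the median log2 fold change of all genes from 0.11 to 0.17 with equal sums and to -0.01 with median-of-ratios. The block used replicate numbers that nothing in the labels ties to shared animals or days, the deviations of same-numbered libraries correlated at -0.05 and -0.01, and wild-type replicate 3 has no partner. Of 549 single-gene values 40 had the other sign, the largest of them in size being Tfrc, at 0.48 in the fit reported. With equal sums these were 0.0045 for Slc40a1, 0.0562 for Trf and 0.0571 for Pcbp2. Median-of-ratios scaling gave -0.12 for Slc11a1, -0.0187 for Hp, -0.0549 for Iscu and -0.0938 for Sqstm1. Quantile normalization gave 0.0729 for Trf and 0.0248 for Pcbp2. Library weights gave 0.48 for Trf, -0.0282 for Aco1, 0.11 for Pcbp2, -0.0082 for Furin and -0.31 for Prdx1. The replicate block gave -0.0747 for Tfrc, 0.36 for Trf, -0.0085 for Aco1, 0.0340 for Pcbp2, -0.0459 for Furin and -0.21 for Prdx1. Over the fits without 1 library the log2 fold change ran from -0.70 to 0.61 for Slc40a1, -0.14 to 0.22 for Slc11a1, -0.45 to 0.20 for Hmox1, -0.0747 to 0.89 for Tfrc, -0.39 to 0.36 for Trf, -0.0085 to 0.26 for Aco1, -0.14 to 0.0536 for Pcbp2, -0.0202 to 0.53 for Smad4, -0.0459 to 0.73 for Furin, -0.0974 to 0.25 for Iscu, -0.21 to 0.71 for Prdx1, -0.13 to 0.19 for Sqstm1, -1.72 to 0.29 for the ratio of Slc40a1 to Tfrc and -0.53 to 0.0716 for the ratio of Slc11a1 to Slc11a2. The cause of these changes was not tested.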
